A study of Mus musculus with 9 samples.

Results

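Toll-like receptors and their shared adaptor MyD88 were followed through mouse fracture callus, the repair tissue that bridges a broken bone, in which signaling through STING had been inhibited, activated or left alone. The 10 genes were taken by symbol from the table of 22054 genes, namely Tlr1, Tlr2, Tlr3, Tlr4, Tlr6, Tlr7, Tlr8, Tlr9, Tlr13 and Myd88, and all 10 were found, each with counts in all 9 libraries and each passing the filter on low counts in every comparison. All mice were male C57BL/6J with a femoral fracture, aged 7 weeks in the labels, and no transgene or deletion is named for any group. The H-151 group was injected into the peritoneum each day with 200 μl holding 750 nmol of H-151, a small-molecule inhibitor of STING. The SR-717 group received SR-717, a small-molecule STING activator, in the same volume at 30 mg/kg. Mice of the PBS group were given that volume of buffer alone, and in all groups treatment began the day after surgery and lasted a week. For the transcriptomes of H-151 and SR-717 callus the authors state day 7 after surgery. Each group had 3 libraries, and nothing in the labels says which mouse each came from, so p-values measure the spread between these libraries. The tissue is labelled bone, although the extraction text in the labels speaks of cell lines, and summed markers of osteoblasts (22367 to 44752 CPM, counts scaled to library size), osteoclasts (5648 to 10670 CPM) and skeletal muscle (3173 to 19745 CPM) were high in every library.

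Toll-like receptors are sensors of the innate immune system that recognise conserved parts of microbes and molecules released from damaged tissue. TLR1, TLR2, TLR4 and TLR6 sit on the cell surface, where TLR2 pairs with TLR1 or TLR6 to bind lipopeptides and TLR4 binds lipopolysaccharide. TLR3, TLR7, TLR8, TLR9 and TLR13 sit in endosomes and bind nucleic acids, namely double-stranded RNA for TLR3, single-stranded RNA for TLR7 and TLR8, unmethylated CpG DNA for TLR9 and bacterial ribosomal RNA for TLR13. All of them except TLR3 signal through MyD88, which recruits IRAK kinases and leads to activation of NF-κB and AP-1, while TLR3 uses the adaptor TRIF. In bone these receptors are known from macrophages, monocytes, neutrophils and osteoclast precursors.

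In the GENCODE annotation of GRCm38, Tlr1 (chr5:64924679-64933563) and Tlr6 (chr5:64952031-64960097) are neighbours on the minus strand, as are Tlr8 (chrX:167242696-167264329) and Tlr7 (chrX:167304929-167330558). Tlr2 lies at chr3:83836272-83841767, Tlr4 at chr4:66827584-66930284, Tlr3 at chr8:45395665-45411080, Tlr9 at chr9:106222598-106226883, Myd88 at chr9:119335934-119341411 and Tlr13 at chrX:106143204-106160493. Tlr1 and Tlr6 are close copies, and their reads could not all be told apart. An annotated Tlr1 transcript of 3025 bases and a Tlr6 transcript of 3677 bases share 229 identical bases, which lie in coding sequence at chr5:64925537-64925765 and chr5:64953828-64954056. This stretch is shown because a read that falls inside it fits both genes. Of the 2876 possible 150-base reads of that Tlr1 transcript, 80 lie in this stretch, and 139 (4.83%) match the Tlr6 transcript in all their bases when shorter shared stretches are counted too.
Tlr1 and Tlr6: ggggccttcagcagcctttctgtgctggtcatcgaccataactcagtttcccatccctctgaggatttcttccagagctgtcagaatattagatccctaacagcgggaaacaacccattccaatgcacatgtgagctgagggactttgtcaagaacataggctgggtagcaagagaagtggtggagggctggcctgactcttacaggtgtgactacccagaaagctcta
The deposited counts of both genes were fractional. The expected count, an estimate that need not be whole, was not a whole number in any of the 9 libraries for Tlr1 and for Tlr6 (tolerance 0.005), yet the sum of the 2 genes was whole in 9 of 9 libraries (tolerance 0.015). The counts of Tlr2, Tlr3, Tlr4, Tlr7, Tlr8, Tlr9 and Tlr13 were whole throughout, and those of Myd88 were not whole in 2 libraries. Tlr1 took between 43.5% and 60.1% of the sum of Tlr1 and Tlr6, so the sum is given beside the single genes below.

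The bases before the transcription start were searched for letters bound by factors of this pathway, since the receptors are themselves known as targets of immune transcription factors. RefSeq start sites on GRCm38.p6 were found for 8 of the 10 genes (10 promoters, each from 250 bases before the start to shortly after it), and not for Tlr4 and Tlr7. The NF-κB consensus of 10 letters was present in 4.51% of all 32851 promoters and in those of Tlr2 and Tlr3. The PU.1 letters GAGGAAG were in 13.6% of all promoters and in those of Tlr1, Tlr9 and Tlr13, and the interferon response core GAAANNGAA was in 8.56% and in those of Tlr6, Tlr8 and Myd88. The AP-1 letters TGANTCA were in 7.81% of all promoters and in that of Tlr9. Both strands were searched, the matches in Tlr6 overlapped each other by 3 bases, and no match of one motif overlapped that of another in these genes. In Tlr2, NF-κB matches at bases −173 to −164 and −172 to −163 also overlapped and are printed below as a single run of capitals. A match describes the letters only. The 4 stretches printed are a selection among the genes with a match, and those of Tlr1, Tlr3, Tlr6 and Myd88 are not shown. The printed stretches are limited to bases outside annotated exons, run 5′ to 3′ on the strand of the gene and have matches in capitals.
Tlr2 (NF-κB, chr3:83841768-83841858, minus strand): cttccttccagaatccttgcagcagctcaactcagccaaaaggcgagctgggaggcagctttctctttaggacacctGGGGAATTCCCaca
Tlr13 (PU.1, chrX:106143025-106143203, plus strand): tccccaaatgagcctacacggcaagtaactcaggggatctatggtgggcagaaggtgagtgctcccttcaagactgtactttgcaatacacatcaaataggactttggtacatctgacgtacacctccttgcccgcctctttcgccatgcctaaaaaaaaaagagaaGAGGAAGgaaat
Tlr8 (interferon response core, chrX:167264330-167264579, minus strand): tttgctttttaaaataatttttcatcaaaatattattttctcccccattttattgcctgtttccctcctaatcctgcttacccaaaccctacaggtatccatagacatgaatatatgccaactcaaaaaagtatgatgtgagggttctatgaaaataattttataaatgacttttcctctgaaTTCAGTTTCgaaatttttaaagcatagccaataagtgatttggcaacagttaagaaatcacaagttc
Tlr9 (PU.1, then AP-1, chr9:106222348-106222597, plus strand): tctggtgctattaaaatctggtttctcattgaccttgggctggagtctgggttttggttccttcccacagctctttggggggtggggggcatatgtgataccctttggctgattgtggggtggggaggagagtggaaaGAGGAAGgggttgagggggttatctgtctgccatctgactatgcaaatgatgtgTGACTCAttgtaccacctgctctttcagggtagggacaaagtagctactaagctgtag

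Levels between genes were compared in TPM, which the authors scaled for gene length. In PBS callus Myd88 was the most abundant of the 10 transcripts at 71.1 ± 7.54 TPM (SD, n = 3), followed by Tlr2 at 26.0 ± 22.2, Tlr13 at 9.89 ± 6.43, Tlr6 at 7.57 ± 4.99 and Tlr1 at 6.82 ± 5.66. Tlr4 followed at 5.22 ± 2.12 TPM, Tlr7 at 3.75 ± 1.45, Tlr3 at 3.62 ± 2.42, Tlr9 at 3.53 ± 2.28 and Tlr8 at 1.78 ± 1.52. Among neighbours in this order, only Myd88 and Tlr2 had ranges over the PBS libraries that did not overlap. Myd88 ranked 1st and Tlr2 2nd in all 9 libraries, and Tlr13, a receptor that humans lack, ranked 3 or 4 in each of them. H-151 callus had the same first 6 genes in the same order, from 68.5 ± 10.5 TPM for Myd88 to 4.34 ± 0.64 for Tlr4. There the ranges of Myd88 and Tlr2 were apart, as were those of Tlr4 and Tlr3 (3.09 ± 0.43 TPM), and other neighbours overlapped. In SR-717 callus Myd88 stood at 85.3 ± 37.5, Tlr2 at 52.8 ± 61.5 and Tlr13 at 19.3 ± 21.1 TPM, with the last 3 places taken by Tlr8 (4.76 ± 2.86), Tlr7 (4.34 ± 2.44) and Tlr3 (3.96 ± 1.43), and no neighbours had separate ranges. The transcript length implied by count and TPM varied between libraries by 2.17-fold for Tlr8, 2.09-fold for Tlr6, 1.505-fold for Tlr3 and 1.37-fold for Tlr7, against at most 1.04-fold for the other 6 genes. The same count of these 4 genes thus gave different TPM values in different libraries.

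The libraries held 16987388 to 23272479 counts, and 2 of them stood apart. On the first principal component of all genes (46.6% of the variance) SR-717 replicate 1 lay at 100.6 and PBS replicate 1 at 38.8, with the other 7 libraries between −28.8 and −4.03. Chondrocyte markers (5 of 5 genes detected in every library) summed to 155 CPM in SR-717 replicate 1 and 1319 CPM in PBS replicate 1, against 3784 to 14506 CPM elsewhere. Markers of neutrophils (9 genes) summed to 6907 CPM in SR-717 replicate 1 against 316 to 2980 CPM in the other 8 libraries, those of monocytes (4 genes) to 732 against 190 to 369 CPM, those of macrophages (8 genes) to 2506 against 1069 to 1704 CPM and those of T cells (6 genes) to 40.5 against 9.89 to 22.2 CPM. Dendritic cell markers did not stand apart, at 20.3 CPM in that library and 19.2 to 35.0 CPM in the others. Erythroid markers (5 genes) summed to 146 CPM in PBS replicate 1 and 288 CPM in SR-717 replicate 1, against 493 to 5287 CPM elsewhere, and endothelial markers (4 genes) to 705 to 838 CPM in all libraries. Osteoblast and osteoclast markers were lowest in SR-717 replicate 1, at 22367 CPM (28842 to 44752 elsewhere) and 5648 CPM (5975 to 10670 elsewhere). B cell markers were lowest in PBS replicate 1 (6.62 CPM) and SR-717 replicate 1 (10.2 CPM), against 10.3 to 57.9 CPM elsewhere. Of the B cell list Ms4a1 was at 0 in at least 1 library, and 4 of the 5 keratinocyte markers (Krt1, Krt5, Krt14 and Dsg3) and Lep of the 4 adipocyte markers were too. In such bulk tissue, fewer cells of a type and less RNA per cell cannot be told apart.

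For comparisons between libraries, counts were scaled by library size with the trimmed mean of M-values (TMM) and are given as CPM below. Tlr2 was at 37.7, 28.2 and 17.9 CPM in H-151 replicates 1 to 3, at 81.7, 21.7 and 20.6 CPM in the PBS replicates and at 224, 32.8 and 25.0 CPM in the SR-717 replicates. The groups overlapped, with SR-717 replicate 1 far above every other library and PBS replicate 1 next. Tlr1, the partner of TLR2 for triacylated lipopeptides, had 10.2, 4.88 and 5.67 CPM with H-151, 19.9, 5.37 and 5.28 with PBS, and 41.5, 9.06 and 5.49 with SR-717. Tlr6, the partner for diacylated lipopeptides, had 9.07, 6.16 and 6.00 CPM with H-151, 16.4, 5.33 and 6.91 with PBS, and 45.8, 6.01 and 6.37 with SR-717. Both genes had the order of libraries seen for Tlr2 at the top, SR-717 replicate 1, PBS replicate 1 and H-151 replicate 1, and among the remaining libraries SR-717 replicate 2 was raised for Tlr1 and not for Tlr6. The sum of Tlr1 and Tlr6, free of how shared reads were divided, was 19.3, 11.0 and 11.7 CPM with H-151, 36.3, 10.7 and 12.2 with PBS, and 87.3, 15.1 and 11.9 with SR-717. Tlr4 had 8.39, 7.99 and 12.0 CPM with H-151, 16.05, 6.98 and 10.8 with PBS, and 35.3, 10.7 and 7.53 with SR-717, and after SR-717 replicate 1 and PBS replicate 1 its next library was H-151 replicate 3.

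**Figure D1:**
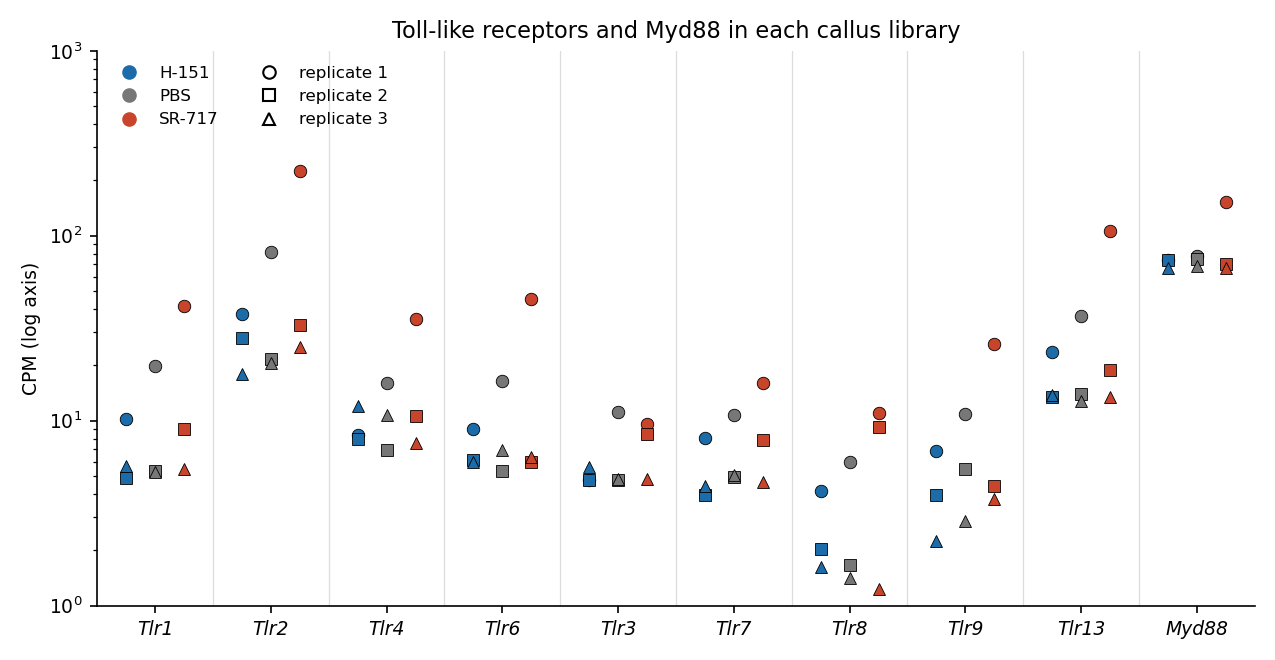
CPM of the 10 genes on a log axis, with 1 point for each library, colored by group and shaped by replicate number. SR-717 replicate 1 is the highest library for 9 of the 10 genes, and the other libraries of the 3 groups overlap.

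Among the endosomal receptors, Tlr13 had 23.5, 13.4 and 13.8 CPM with H-151, 36.8, 13.9 and 12.8 with PBS, and 106, 18.9 and 13.4 with SR-717. Tlr9, the DNA sensor, had 6.82, 3.94 and 2.22 CPM with H-151, 10.9, 5.50 and 2.87 with PBS, and 25.9, 4.46 and 3.80 with SR-717, so that replicate 1 was the highest in every group. Tlr7 had 8.09, 3.94 and 4.45 CPM with H-151, 10.7, 4.95 and 5.11 with PBS, and 15.96, 7.84 and 4.67 with SR-717. Each of these genes was again highest in SR-717 replicate 1. Tlr8, encoded beside Tlr7, had 4.17, 2.02 and 1.61 CPM with H-151, 6.00, 1.65 and 1.41 with PBS, and 11.0, 9.29 and 1.23 with SR-717. It differed from the other genes in SR-717 replicate 2, where it reached 5.70-fold the median of the other 6 libraries that did not stand apart, against 0.959-fold for Tlr6 to 1.76-fold for Tlr3. These Tlr8 values rest on 198 reads in that library and on 21 to 105 reads in the libraries other than SR-717 replicates 1 and 2. Tlr3, the receptor that does not use MyD88, had 4.81, 4.78 and 5.61 CPM with H-151, 11.2, 4.78 and 4.83 with PBS, and 9.61, 8.495 and 4.85 with SR-717. It was the 1 gene with its highest value in PBS replicate 1. Myd88 had 73.6, 74.2 and 67.0 CPM with H-151, 77.5, 74.4 and 68.7 with PBS, and 151.3, 70.7 and 66.8 with SR-717. Outside SR-717 replicate 1 its 8 values lay within 66.8 to 77.5 CPM.

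SR-717 replicate 1 stood above the median of the other 8 libraries by 8.42-fold for Tlr2, 7.69-fold for Tlr13, 7.44-fold for Tlr1, 7.31-fold for Tlr6, 6.17-fold for Tlr9, 6.00-fold for Tlr8, 3.71-fold for Tlr4, 3.17-fold for Tlr7, 2.10-fold for Myd88 and 1.98-fold for Tlr3. Thus 9 of the 10 genes were over 2-fold there, compared with 13.6% of the 13949 genes tested in every comparison, and 9 of 10 had their highest value there, compared with 26.9%. PBS replicate 1 was the second highest library for 8 of the 10, at 1.10-fold (Myd88) to 3.62-fold (Tlr1) the median of the 7 remaining libraries. Within those 7 libraries Myd88 spanned 1.11-fold from lowest to highest and Tlr6 1.70-fold, Tlr4 1.71-fold, Tlr3 1.78-fold, Tlr13 1.85-fold, Tlr7 2.05-fold, Tlr1 2.09-fold, Tlr2 2.10-fold, Tlr9 3.07-fold and Tlr8 7.58-fold. H-151 replicate 1 was the highest of the 7 for Tlr1, Tlr2, Tlr6, Tlr7, Tlr9 and Tlr13. Since the marker sums of neutrophils, monocytes and macrophages were also highest in SR-717 replicate 1, the part of cell makeup in these values was not tested.

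The comparison of SR-717 with PBS asks whether activating STING changed the receptors. All 10 fitted log2 fold changes were above 0, with a median of 0.85 against 0.01 over all 14070 genes tested, and none of the 10 passed an unadjusted p of 0.05 with a 1.5-fold change in edgeR's quasi-likelihood test. Over all genes 73 did, which is 0.519%, and at a Benjamini-Hochberg adjusted p of 0.05 no gene was called (0%), while 97 genes had an unadjusted p under 0.05 and DESeq2's Wald test called 0 at the adjusted threshold. Tlr8 was higher by a log2 fold change of 1.26 (SE 0.90, edgeR adjusted p = 1.00), Tlr2 by 1.18 (SE 0.99), Tlr13 by 1.13 (SE 0.87) and Tlr6 by 1.02 (SE 0.90). Tlr1 came to 0.88 (SE 0.90), Tlr9 to 0.83 (SE 0.87), Tlr4 to 0.66 (SE 0.63), Tlr7 to 0.46 (SE 0.53), Myd88 to 0.39 (SE 0.34) and Tlr3 to 0.14 (SE 0.45). The sum of Tlr1 and Tlr6 differed by 0.95 (SE 0.89). The edgeR adjusted p was 1.00 for each of the 10, and none had groups that did not overlap, compared with 3.68% of all genes. Without SR-717 replicate 1, 9 of the 10 log2 fold changes were below 0, from −0.64 for Tlr9 and −0.63 for Tlr6 to −0.05 for Tlr3, and Tlr8 was at 0.81 (SE 0.98). Tlr3 was also below 0 without PBS replicate 2 (−0.08) or without PBS replicate 3 (−0.06). Without PBS replicate 1, Tlr2 stood at 2.15 and Tlr1 at 1.81. Without SR-717 replicate 3, Tlr8 passed the thresholds (log2 fold change 1.75, SE 0.68, edgeR), as did 2.22% of all genes. With both libraries that stand apart left out, Tlr8 was at 1.81, Tlr3 at 0.50, Tlr1 and Tlr2 at 0.47, Tlr7 at 0.34, Tlr13 at 0.30, Tlr4 at 0.06, Tlr6 at 0.03, Tlr9 at −0.0040 and Myd88 at −0.04, and none passed.

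**Figure D2:**
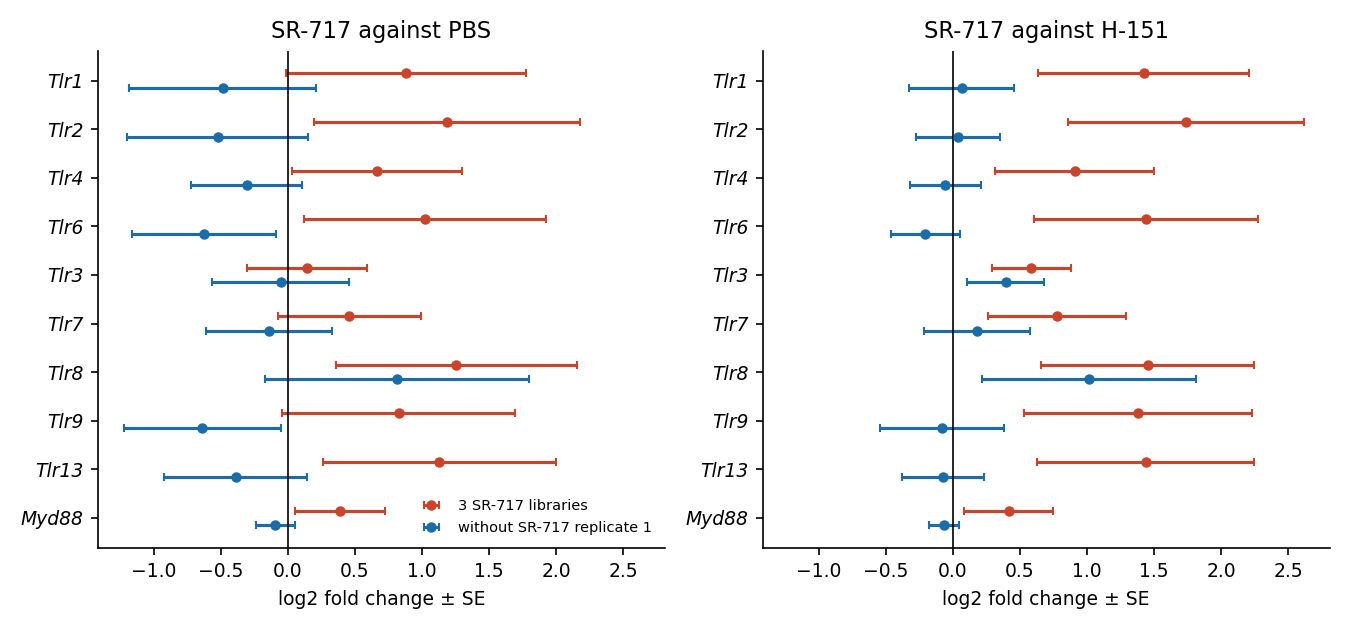
Fitted log2 fold changes ± SE of SR-717 against PBS (left) and against H-151 (right), with all 3 SR-717 libraries in red and without SR-717 replicate 1 in blue. In the left plot 9 of the 10 values lie below 0 once that library is left out, and in the right plot 5 do.

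In this comparison, deviations from the group mean correlated positively between libraries of the same replicate number. Libraries of different numbers were not compared in this way, and number 1 holds both libraries that stand apart. The correlations thus do not show that the numbers pair the samples. As an alternative, the number was also entered as a block. SR-717 was then higher than PBS by a log2 fold change of 0.78 for Tlr2 (SE 0.27, edgeR adjusted p = 0.999), which passed the thresholds, while the other 9 genes did not. With the block 443 genes passed (3.15%), and at the adjusted threshold none did. Tlr2 was higher with SR-717 in each same-number pair, by 2.74-fold, 1.51-fold and 1.22-fold for numbers 1, 2 and 3. Tlr1 was also higher in all 3 pairs, by 2.09-fold, 1.69-fold and 1.04-fold (block log2 fold change 0.64, SE 0.26), as was Tlr13, by 2.89-fold, 1.36-fold and 1.05-fold (0.69, SE 0.32). These 3 of 10 genes compare with 10.9% of all genes that were higher in all 3 pairs. The sum of Tlr1 and Tlr6 was higher with SR-717 in pairs 1 and 2 and not in pair 3. There it was 11.9 CPM with SR-717 and 12.2 CPM with PBS, so the small Tlr1 difference in that pair depends on how shared reads were divided. Of the 10 genes, 9 were higher in pair 1, 8 in pair 2 and 5 in pair 3, with median log2 differences of 1.10, 0.60 and −0.02, against 0.013, −0.0030 and −0.014 over all genes. Pair 1 is made of the 2 libraries that stand apart. In the block fit on numbers 2 and 3 alone, chosen after the data were seen, Tlr2 had a log2 fold change of 0.46 (SE 0.24) and none of the 10 passed. Under the block with all numbers, 8 of the 9 tested neutrophil markers, 2 of the 4 of monocytes and 1 of the 8 of macrophages rose past the thresholds, and 4 of the 5 chondrocyte markers fell past them. Their part in the Tlr2 value was not tested.

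**Figure D3:**
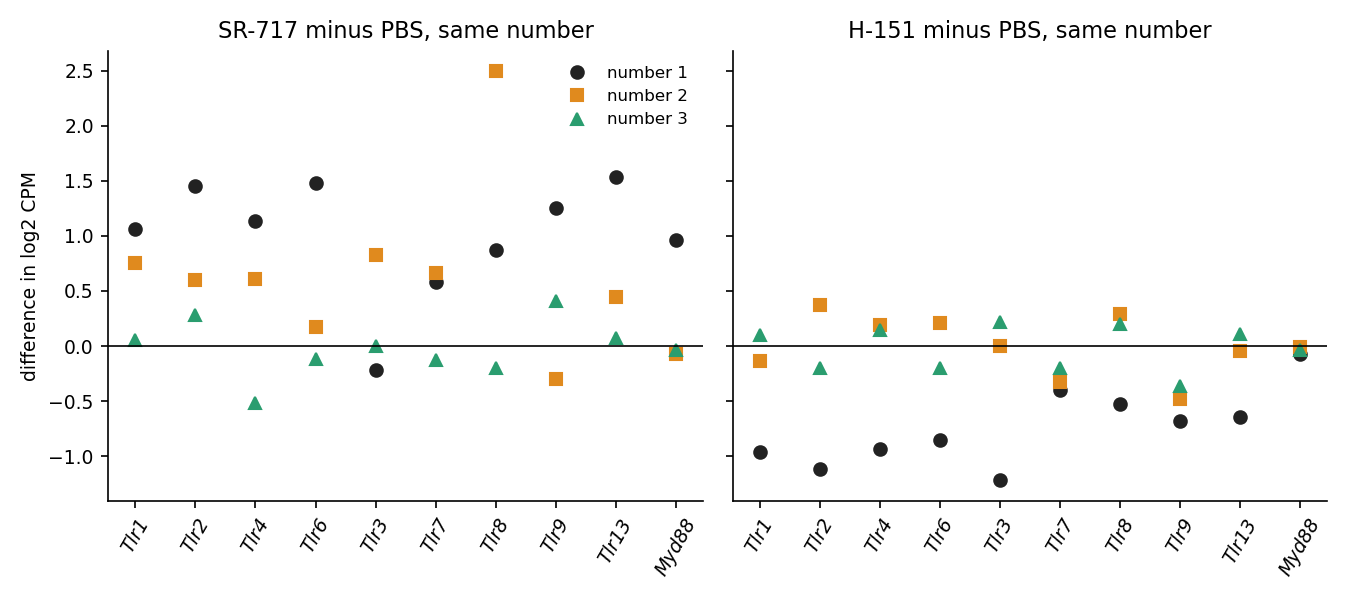
Difference in log2 CPM between libraries with the same replicate number, for SR-717 minus PBS (left) and H-151 minus PBS (right), with 1 point for each gene and number. Number 1 gives positive differences for 9 of the 10 genes on the left and negative ones for all 10 on the right, and numbers 2 and 3 lie closer to 0 for most genes.

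H-151 was compared with PBS to ask whether blocking STING changed the receptors. All 10 log2 fold changes were below 0, with a median of −0.38 against −0.02 over all 14085 genes tested, and none of the 10 passed the thresholds in edgeR's test, which 60 genes did (0.426%). No gene was called at the adjusted threshold (0%) by edgeR or by DESeq2's Wald test, and 91 had an unadjusted p under 0.05. Tlr9 stood at −0.56 (SE 0.58), Tlr2 at −0.56 (SE 0.58) and Tlr1 at −0.55 (SE 0.59), and the sum of Tlr1 and Tlr6 stood at −0.49 (SE 0.51). Tlr3 stood at −0.45 (SE 0.38), Tlr6 at −0.43 (SE 0.45), Tlr7 at −0.33 (SE 0.42), Tlr13 at −0.32 (SE 0.46), Tlr4 at −0.25 (SE 0.34), Tlr8 at −0.20 (SE 0.65) and Myd88 at −0.04 (SE 0.12). The edgeR adjusted p was 1.00 for each, and groups overlapped for all 10 genes while 3.81% of all genes had groups that did not. Without PBS replicate 1, all 10 values were above 0, from 0.01 for Myd88 to 0.78 for Tlr8, with Tlr2 at 0.41 and Tlr1 at 0.39. Without H-151 replicate 3, Tlr8 (0.04) and Myd88 (0.01) were above 0, and Tlr8 was also above 0 (0.05) when log2(TPM + 1) was tested with limma. The macrophage markers had a median of −0.20 in this comparison, with 1 of 8 above 0, and those of neutrophils 0.76, with 8 of 9 above 0. In same-number pairs the block raised the count over all genes to 262 (1.86%) and that of the 10 genes stayed at 0. Tlr9 was lower with H-151 in each pair, at 0.625-fold, 0.718-fold and 0.776-fold of PBS for numbers 1, 2 and 3 (block log2 fold change −0.52, SE 0.21). Tlr7 was also lower in each, at 0.758-fold, 0.797-fold and 0.869-fold, and Myd88 at 0.949-fold, 0.997-fold and 0.975-fold. These 3 of 10 genes compare with 11.6% of all genes that were lower in all 3 pairs.

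Between SR-717 and H-151, the pair of opposed treatments, all 10 log2 fold changes were above 0 with a median of 1.40 against 0.02 over 14151 genes. None passed the thresholds, which 107 genes did (0.756%), and no gene was called by edgeR at the adjusted threshold (0%), while 146 had an unadjusted p under 0.05 and DESeq2's Wald test called 1. Tlr2 was higher with SR-717 by a log2 fold change of 1.74 (SE 0.88, edgeR adjusted p = 0.996). Tlr8 was at 1.45 (SE 0.79), Tlr6 at 1.44 (SE 0.84), Tlr13 at 1.44 (SE 0.81), Tlr1 at 1.42 (SE 0.79), Tlr9 at 1.38 (SE 0.85), Tlr4 at 0.91 (SE 0.59), Tlr7 at 0.78 (SE 0.51), Tlr3 at 0.59 (SE 0.29) and Myd88 at 0.42 (SE 0.33). The edgeR adjusted p was 0.996 for each of the 10, the sum of Tlr1 and Tlr6 stood at 1.43 (SE 0.80), and groups overlapped for each gene (5.05% of all genes did not overlap). Without SR-717 replicate 1 the values shrank to between −0.21 for Tlr6 and 1.01 for Tlr8 (SE 0.80), 5 of the 10 were below 0 and Tlr2 came to 0.04 (SE 0.31). Without SR-717 replicate 3, 5 of the 10 passed in edgeR (Tlr1, Tlr2, Tlr3, Tlr8 and Tlr13), as did 4.6% of all genes, with Tlr8 at 1.95 (SE 0.45) and Tlr3 at 0.83 (SE 0.21). In DESeq2's Wald test Tlr2 passed (log2 fold change 1.75, SE 0.83), as did 1.48% of genes. Each group enters 2 of the 3 comparisons, so these are not separate evidence.

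The make-up of the receptor repertoire was described as the share of each gene in the summed TPM of the 9 Toll-like receptors. The sum was 34.1 to 72.3 TPM with H-151, 37.0 to 124 with PBS and 44.4 to 269 with SR-717, and in each group replicate 1 was the highest. Endosomal receptors made up 35.6 ± 2.97% of it with H-151, 34.5 ± 3.05% with PBS and 34.4 ± 7.96% with SR-717 (SD, n = 3), means that differed by less than the SD of any group. Within the SR-717 group the share was 27.5% in replicate 1, 43.1% in replicate 2 and 32.6% in replicate 3, and replicates 1 and 2 held the lowest and the highest share of the 9 libraries. Tlr2 took 46.1% of the sum in SR-717 replicate 1, against 28.9% to 41.6% elsewhere, and Tlr3 took 1.55% there, against 4.93% to 8.90%. In SR-717 replicate 2 the Tlr8 share was 10.4%, against 2.14% to 5.01% elsewhere. Tlr13 kept a share between 13.8% and 16.5% in all 9 libraries. The ratio of Myd88 to the summed receptors was 0.479 in SR-717 replicate 1 and 0.607 in PBS replicate 1, against 1.07 to 1.74 in the other 7, so in the libraries that stood apart the summed receptors lay further above the rest than their adaptor did.

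**Figure D4:**
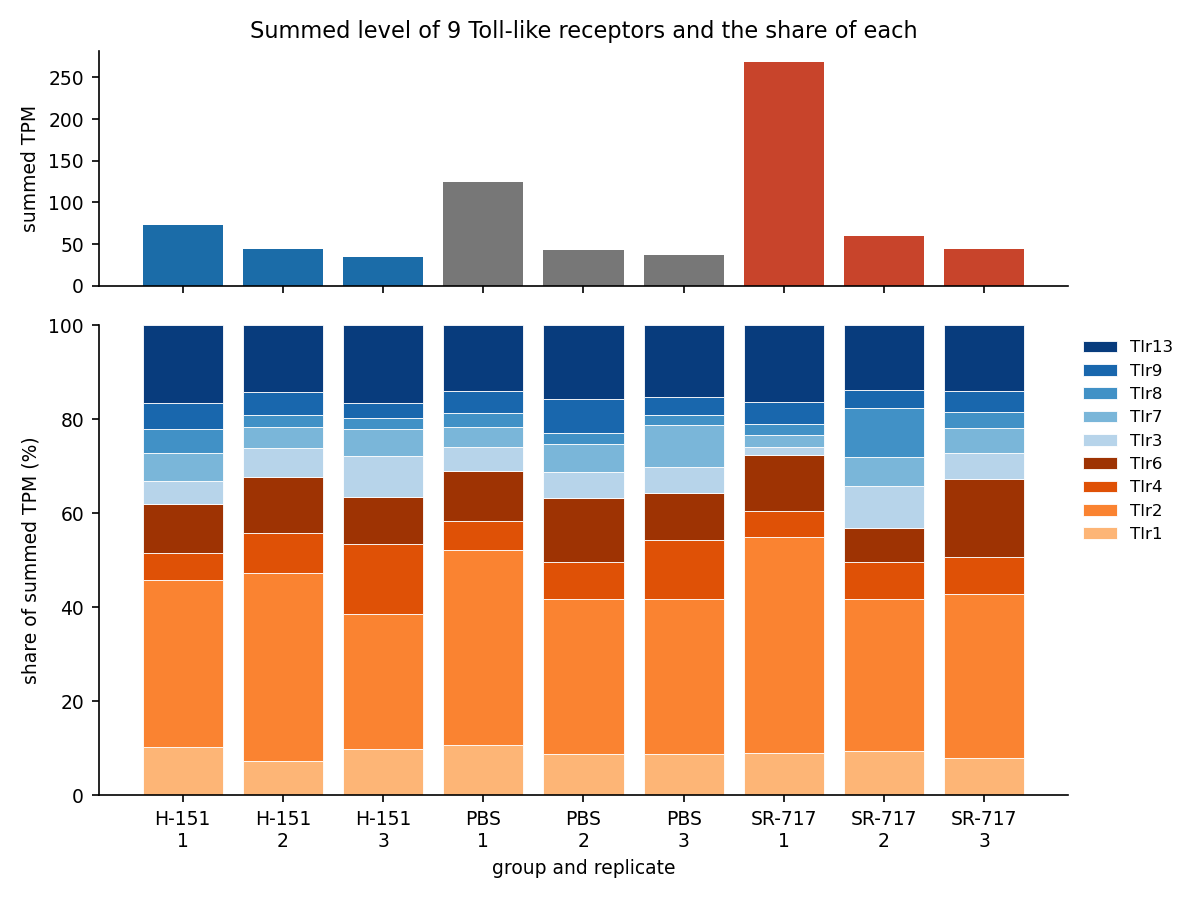
Summed TPM of the 9 Toll-like receptors in each library (top) and the share of each receptor in it (bottom), with surface receptors in orange and endosomal receptors in blue. The sum reaches 269 TPM in SR-717 replicate 1, where Tlr2 takes 46.1% of it, and Tlr8 takes 10.4% in SR-717 replicate 2.

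Set against macrophage markers, the genes fell into different patterns. Myd88 had 45.5 to 67.0 CPM for each 1000 CPM of the 8 macrophage markers, and SR-717 replicate 1 lay inside that range at 60.4, 1.11-fold the median of the other 8 libraries. Tlr3 was at 3.83 there, inside its range of 3.53 to 6.57. Tlr7 was at 6.37 in SR-717 replicate 1 and 6.27 in PBS replicate 1, and Tlr4 was at 14.1 against 5.15 to 10.1 elsewhere. Tlr2 stood at 89.3, against 15.1 to 47.9 in the other libraries, which was 4.25-fold their median. The corresponding ratio was 3.53-fold for Tlr13, 3.44-fold for Tlr6, 3.41-fold for Tlr1 and 3.10-fold for Tlr9. Tlr8 was highest in SR-717 replicate 2 on this scale, at 6.47 against 4.39 in SR-717 replicate 1. None of the 8 macrophage markers passed the thresholds in any of the 3 comparisons without the replicate block, 1 of them rose past the thresholds with the block for SR-717 against PBS, and how much each cell type adds to each gene was not tested.

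**Figure D5:**
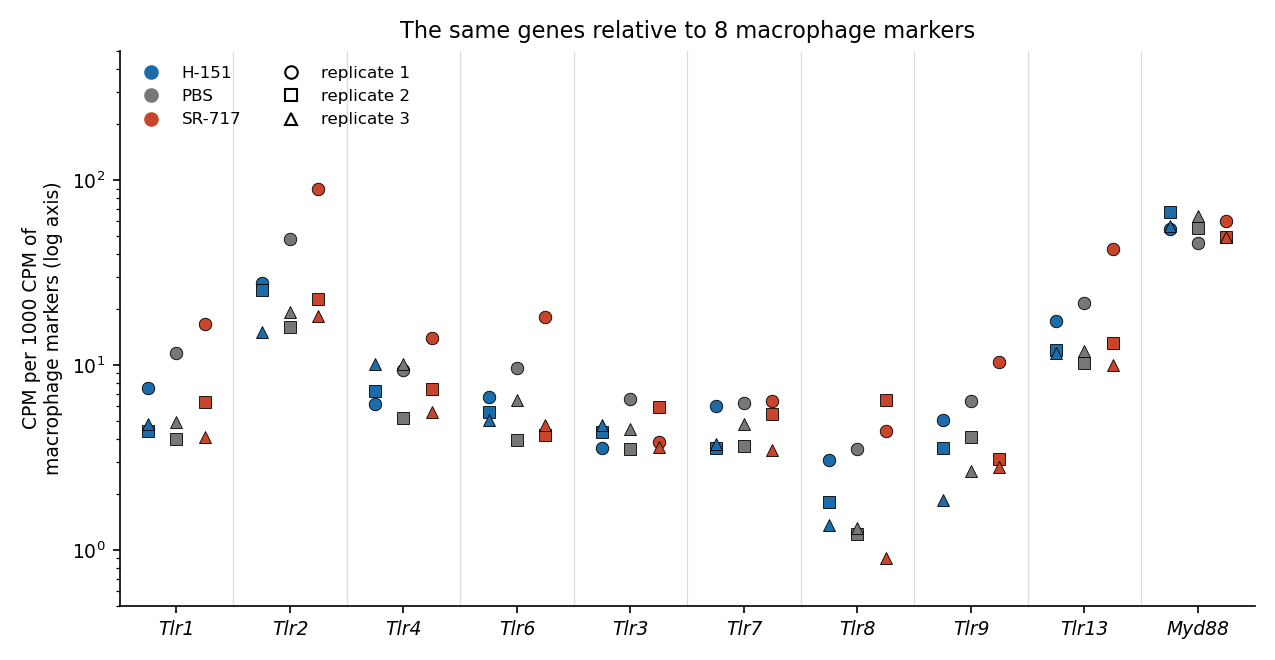
CPM of each gene for every 1000 CPM of summed macrophage markers, on a log axis, with colors for groups and shapes for replicate numbers. Myd88 keeps all 9 libraries between 45.5 and 67.0, while Tlr2 spreads from 15.1 to 89.3.

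Levels of the 10 genes were correlated with each other and with the 13948 other genes as log2 CPM, as a description over libraries that share treatment groups. Over the 9 libraries the 45 correlations among the 10 genes ranged from 0.54 (Tlr3 and Myd88) to 0.99 (Tlr1 and Tlr13), with a median of 0.87. Over the 7 libraries that did not stand apart they ranged from −0.67 (Tlr4 and Tlr9) to 0.97 (Tlr1 and Tlr13), with a median of 0.51, so that the correlations were lower without the 2 libraries left out. With so many genes and so few libraries, even the lowest correlation among the closest genes named below was 0.936 (Tlr6 with Psma8 over 7 libraries). The 7 libraries are part of the 9, so a gene named in both sets is not separate evidence. The genes most like Tlr2 over 9 libraries were Nlrp3, which encodes an inflammasome sensor (r = 0.998), Ifitm1 and Fcer1g. Over 7 libraries Nlrp3 was again among its 3 closest (r = 0.978) with Gnai2 and Dnajc5. Tlr13 was closest to Dtx3l (r = 0.995), Fcgr2b and Lcp1, and over 7 libraries to Tlr1, Dtx3l and Il12a. Tlr9 was closest to Cln3 both over 9 libraries (r = 0.994) and over 7 (r = 0.983), followed by Zbp1 and Baz2a, or by Il18bp and Stat6. Tlr7 was near Rasgef1b over 9 (r = 0.989) and over 7 libraries (r = 0.981), with Tlr1 and Gigyf1 or Lcp2 and Eif2ak2. Tlr8 was followed by Polr1f, Sirpb1a and Map3k8 over 9 libraries, and over 7 by Map3k8 (r = 0.990), Clec5a and Htatsf1. The nearest to Tlr1 were Parp9, Slamf7 and Aim2, or Rassf4, Tlr13 and Cklf over 7. For Tlr6 they were Ms4a6d, Casp4 and Rnf149, or Pxk, Washc5 and Psma8, and for Tlr4 Cd44, Nabp1 and Ttc39b, or Slc12a2, Gm14305 and Ddx3x. Tlr3 was nearest to Cul2, Efcab14 and Zhx1, or Mterf3, Gdnf and Gabra3, and Myd88 to Prdx5, Bin3 and Prdx6, or Itprip, Cspg4b and M1ap, with no gene in common between both sets for Tlr1, Tlr3, Tlr4, Tlr6 or Myd88.

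The rest of the pathway was read from lists of 90 genes, from ligands to targets, of which 86 were tested for SR-717 against PBS. The lists were chosen with earlier results of these data known, so their shares beside those of all genes are descriptive. None of the 86 passed the thresholds there, against 0.519% of all genes tested. The log2 fold change was above 0 for 73 of the 86, against 52.2% of all genes, with a median of 0.48 against 0.01. The genes of lowest p in each list were Ccl5 (2.56, SE 1.19) and Nos2 (2.56, SE 1.60) among 17 tested targets, S100a9 (1.76, SE 0.95) and S100a8 (1.71, SE 0.90) among 10 endogenous ligands, and Cd36 (0.68, SE 0.30) and the endosomal chaperone Unc93b1 (0.64, SE 0.38) among 10 co-receptors and chaperones. Adaptors gave Tirap (0.59, SE 0.34) and Ticam1, which encodes TRIF (−0.30, SE 0.19). The list of kinases, ubiquitin ligases and their partner proteins gave Ikbkg (0.30, SE 0.18) and Map3k8 (1.44, SE 1.05). Inhibitors gave Dusp1 (1.02, SE 0.64) and Tnip1 (0.79, SE 0.53), transcription factors Irf8 (0.87, SE 0.46) and Irf5 (0.63, SE 0.39), and other receptors Tlr12 (0.62, SE 0.38) and Il18r1 (1.25, SE 0.86). With the replicate number as a block, 16 of the 86 rose past the thresholds and none fell, against 3.15% of all genes called in either direction. In the same fit 8 of the 9 neutrophil markers rose past the thresholds, and S100a8 and S100a9, which neutrophils express strongly, are among the 16 genes. The part of neutrophil RNA in these values was not tested. The 16 genes held 8 of the 17 targets. The targets were Cxcl1, Cxcl2 and Cxcl3, which attract neutrophils, Ccl3, Ccl4, Acod1, Il1a and Il1b, with log2 fold changes from 0.96 (Ccl3) to 2.02 (Acod1). The others were the ligands S100a8 (1.64, SE 0.27), S100a9 (1.60, SE 0.39) and Saa3 (2.09, SE 0.55), the co-receptor Cd14 (0.92, SE 0.34), the kinase gene Map3k8 (1.12, SE 0.42), the inhibitor Dusp1 (0.89, SE 0.21) and the factors Fos (0.61, SE 0.18) and Irf8 (0.76, SE 0.25). All 16 had an edgeR adjusted p of 0.999 in that fit. Without SR-717 replicate 1 the target median turned from 1.82 to −1.32, with 1 of the 17 above 0. That fit still holds PBS replicate 1, where Il1b was at 192.5 CPM against 8.46 and 4.16 CPM in the other PBS libraries. The turn is therefore not read as lower targets in the other SR-717 libraries. In the same fit Cd36 alone of the 86 passed (0.81, SE 0.32), as did 0.747% of all genes.

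For H-151 against PBS 1 of 85 tested pathway genes passed, against 0.426% of all genes, and nothing particular to the list is read from 1 gene. It was Cd36, a scavenger receptor that assists TLR2 with TLR6 (log2 fold change 0.66, SE 0.24, edgeR adjusted p = 1.00). Cd36 was at 65.0, 48.8 and 75.8 CPM with H-151 and at 51.3, 37.1 and 31.2 CPM with PBS, values that overlap. With the block Cd36 passed again (0.67, SE 0.21) and the chemokine gene Ccl4 fell past the thresholds (−1.29, SE 0.45), 2 of 85 against 1.86% of all genes. In that fit 8 of the 9 neutrophil markers, 4 of the 5 erythroid markers and 3 of the 3 tested adipocyte markers rose past the thresholds. The other lists gave Nos2 (−1.65, SE 0.71) and Tnf (−1.56, SE 0.83) among targets, Saa3 (−4.86, SE 2.34) and Hspd1 (−0.27, SE 0.14) among ligands, Sarm1 (0.65, SE 0.34) and Ticam1 (−0.26, SE 0.15) among adaptors, Peli1 (−0.66, SE 0.37) and Traf3 (−0.22, SE 0.14) among kinases and ligases, Tnfaip3 (−0.82, SE 0.55) and Dusp1 (0.65, SE 0.46) among inhibitors, Irf3 (−0.22, SE 0.15) and Rela (−0.23, SE 0.18) among factors, and Il1rap (−0.48, SE 0.42) and Tlr12 (0.32, SE 0.40) among receptors. None of these passed. For SR-717 against H-151, 5 of 86 rose past the thresholds and none fell, against 0.756% of all genes called in either direction. They were the ligand Saa3, an acute-phase protein (log2 fold change 6.26, SE 2.43), and the targets Il1a (5.71, SE 2.12), Nos2 (4.19, SE 1.56), Cxcl3 (4.14, SE 1.68) and Tnf (3.37, SE 1.33), with an edgeR adjusted p of 0.996 for each. Saa3 showed the same libraries on top as the receptors, with 23.7, 5.67 and 2.22 CPM under H-151, 916, 2.66 and 2.08 under PBS, and 2412, 33.0 and 5.08 under SR-717. Tnf was at 3.92, 2.22 and 2.28 CPM with H-151, at 19.5, 3.34 and 2.14 with PBS and at 80.9, 3.61 and 3.74 with SR-717. Without SR-717 replicate 1 none of the 86 rose past the thresholds, and Ptgs2, which encodes the prostaglandin synthase COX-2, fell past them (−1.14, SE 0.21), against 1.05% of all genes past them in either direction. In the lists with no gene past the thresholds the lowest p belonged to Ly86 (1.04, SE 0.44) and Cd14 (2.95, SE 1.42), Sarm1 (−0.79, SE 0.33) and Tirap (0.64, SE 0.31), Map3k8 (1.99, SE 0.93) and Ikbke (1.63, SE 0.79), Tnfaip3 (2.07, SE 0.95) and Zc3h12a (1.78, SE 0.92), Irf5 (0.71, SE 0.38) and Irf8 (0.71, SE 0.46), and Il1rap (1.92, SE 1.10) and Il18r1 (1.00, SE 0.81).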

How the data were processed

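Callus RNA was poly(A)-selected, and strand-specific libraries were sequenced by a service company. Per gene, the authors deposited an expected count, not normalized, and TPM values scaled for gene length and library total. The submitters' processing notes name mm10, and the aligner, counter and use of strand are not given in the sources used here. Samples were grouped by the treatment in the labels. Expected counts were rounded and tested with edgeR 4.0.16 (R 4.3.3; filterByExpr with a count of 10 and a total of 15, TMM, glmQLFit and glmQLFTest) on the 6 libraries of each comparison, without covariates. Thresholds were an unadjusted p of 0.05 with 1.5-fold, and separately a Benjamini-Hochberg adjusted p of 0.05. Standard errors were derived from the F statistic. The fit of SR-717 against PBS was checked on simulated counts with each gene drawn independently. That check therefore does not cover libraries that stand apart over many genes at once. Levels for correlations were log2 CPM with a prior count of 2.

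Every gene of the family and pathway lists was counted, and in each list the text names those past the thresholds or else the 2 of lowest p. For each receptor the 3 genes of highest Pearson correlation are named. The genes, lists and markers were chosen with earlier results of these data known. Deviations from the group mean correlated between same-number libraries for SR-717 against PBS (0.65, 0.34 and 0.14) and H-151 against PBS (0.30, 0.49 and 0.50). For SR-717 against H-151 the values were 0.34, 0.062 and 0.079. No correlation between libraries of different numbers was computed. The numbers were taken from the labels, which do not say what they mark. No library pair was a copy (36 pairs). Alternatives used DESeq2 1.42.0, limma 3.58.1 on log2(TPM + 1), no filter, all 9 libraries, a replicate block and each library left out.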

Additional observations from a re-analysis of the deposited data

How the results depend on the processing

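Of 380 log2 fold changes of the 10 genes recomputed under alternatives, 32 changed sign and 8 newly passed the thresholds. None of the 10 genes had passed in the fits reported first, so no call could be lost. Of the sign changes, 4 came from alternatives other than leaving out 1 library. Over the fits that left out 1 library, the log2 fold changes that changed sign ranged as follows. For SR-717 against PBS the range was −0.49 to 1.81 for Tlr1, −0.52 to 2.15 for Tlr2, −0.31 to 1.03 for Tlr4, −0.63 to 1.66 for Tlr6, −0.078 to 0.67 for Tlr3, −0.14 to 0.92 for Tlr7, −0.64 to 1.44 for Tlr9, −0.39 to 1.79 for Tlr13 and −0.094 to 0.59 for Myd88. For H-151 against PBS the range was −0.94 to 0.39 for Tlr1, −0.88 to 0.41 for Tlr2, −0.50 to 0.10 for Tlr4, −0.71 to 0.23 for Tlr6, −0.65 to 0.086 for Tlr3, −0.72 to 0.14 for Tlr7, −0.72 to 0.78 for Tlr8, −1.05 to 0.056 for Tlr9, −0.63 to 0.36 for Tlr13 and −0.086 to 0.010 for Myd88. For SR-717 against H-151 the range was −0.057 to 1.27 for Tlr4, −0.21 to 1.87 for Tlr6, −0.081 to 1.87 for Tlr9, −0.074 to 1.87 for Tlr13 and −0.066 to 0.62 for Myd88. The lowest values for SR-717 came without SR-717 replicate 1 (for Tlr3 against PBS, without PBS replicate 2), and the highest for H-151 against PBS without PBS replicate 1. With both libraries that stand apart left out, Tlr9 gave −0.0040 and Myd88 −0.039 for SR-717 against PBS, and limma on log2(TPM + 1) gave 0.046 for Tlr8 in H-151 against PBS. The cause was not tested.

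Counts of all genes past the thresholds for SR-717 against PBS were 138 with DESeq2's Wald test, 194 without a filter, 176 with all 9 libraries in 1 fit, 118 without both libraries that stand apart and 95 to 319 with 1 library left out (118 without PBS replicate 1, 259 without PBS replicate 2 and 319 without SR-717 replicate 3). For H-151 against PBS they were 127 without a filter and 43 to 698 with 1 library left out (99 without H-151 replicate 3, and 115, 698 and 153 without PBS replicates 1, 2 and 3). For SR-717 against H-151 they were 209 with the Wald test, 223 without a filter, 171 with all 9 libraries and 64 to 661 with 1 left out (64 without H-151 replicate 2, 384 without SR-717 replicate 2 and 661 without SR-717 replicate 3). Of the 10 genes, 0 to 1 passed for SR-717 against PBS and 0 to 5 for SR-717 against H-151 with 1 library left out, and 1 by the Wald test in the latter. Where a library left 2 against 3, the fit pooled the spread.

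With a block for the replicate number, 443 genes passed for SR-717 against PBS and 262 for H-151 against PBS, and 1 of the 10 genes (Tlr2) in the first. In the block on numbers 2 and 3 alone 135 genes passed and Myd88 was at −0.038. The same replicate numbers label all groups, and they were not shown to pair the samples in any comparison. For SR-717 against H-151, where same-number correlations were 0.34, 0.062 and 0.079, the block gave 143 genes (1.01%). There none of the pathway genes Saa3, Il1a, Nos2, Cxcl3 and Tnf passed, and 6 others rose past the thresholds (Ly86, Ticam2, Irf5, Irf7, Irf8 and Ccl4). The block changed no other call among the 10 genes. Low counts limit Tlr8 most, at 21 to 213 reads in a library.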

Other observations

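Among Toll-like receptors outside the 10, the flagellin receptor Tlr5 was present at 2.47 to 9.04 CPM and was highest in SR-717 replicate 1, as were most of the 10 genes. Tlr12 was at 0.787 to 1.86 CPM. Tlr11 was below 0.414 CPM in every library and did not pass the filter on low counts. The chaperone Unc93b1, which carries the endosomal receptors out of the endoplasmic reticulum, was at 76.7 to 137 CPM in 8 libraries and at 254 CPM in SR-717 replicate 1. Cnpy3, a chaperone for folding of several receptors, stayed between 48.2 and 77.3 CPM in all 9.

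TPM and count gave different pictures for Tlr6 and Tlr8. From SR-717 replicate 2 to SR-717 replicate 3, Tlr6 went from 6.01 to 6.37 CPM and from 4.34 to 7.45 TPM. Tlr8 was lowest in SR-717 replicate 3 by CPM (1.23), whereas its TPM there (1.47) was above those of PBS replicate 3 (0.792) and H-151 replicate 3 (0.822). The implied length of both genes was shortest in SR-717 replicate 3, and such a spread of 2-fold or more was seen in about 1% of genes, with 1.09% above Tlr6 and 0.95% above Tlr8.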
